A study of Mus musculus with 5 samples.

Results

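The MHC class I and immunoproteasome genes are a set of 10: B2m, H2-K1, H2-D1, Tap1, Tap2, Tapbp, Nlrc5, Psmb8, Psmb9 and Psmb10. They were taken by symbol from the 32285 genes that all 5 libraries list, and all 10 were found. Kidney cells were sequenced in droplets, with reads from the 3′ ends of transcripts. All mice were wild-type males of the C57BL/6 strain, 8 to 10 weeks old. The control group (1 library) received vehicle, the AKI group (2 libraries) received aristolochic acid I (AAI, a plant toxin that injures the renal tubule) at 3 mg/kg intraperitoneally every 3 days over 2 weeks, and the CKD group (2 libraries) was taken after 2 further weeks without AAI. After filtering, 53718 cells were left, of which 12029 were tubular-like, 1808 endothelial-like, 341 stromal-like (pericytes and fibroblasts) and 33412 immune-like by marker genes. Levels are counts of captured RNA molecules (UMIs, unique molecular identifiers) of a gene per 10000 UMIs of all summed cells of a compartment in a library. Values of 5 libraries are always in the order control, AKI 1, AKI 2, CKD 1, CKD 2.

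MHC class I molecules carry peptides of the cell's own proteins to its surface, where CD8 T cells read them. H2-K1 and H2-D1 encode the heavy chains, and B2m the light chain that every class I molecule needs. The proteasome cuts proteins into the peptides. Psmb8, Psmb9 and Psmb10 encode the catalytic subunits that replace those encoded by Psmb5, Psmb6 and Psmb7 when an immunoproteasome is built. Tap1 and Tap2 form the pump that brings peptides into the endoplasmic reticulum, and Tapbp (tapasin) joins it to the waiting class I molecule. Nlrc5 is a transactivator of class I genes. Interferon gamma, made chiefly by T and NK cells, is the best known inducer of the whole set. Most healthy renal epithelium expresses it at a low level, while endothelium and leukocytes express it at a high level.

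In GRCm38.p6, 7 of the 10 genes lie on chromosome 17, from Tapbp, which starts at 33919478, to H2-D1, which ends at 35267497. Psmb9 (34182030 to 34187330), Tap1 (34187556 to 34197225), Psmb8 (34198195 to 34201454) and Tap2 (34204479 to 34216321) are neighbours there. B2m is on chromosome 2 (122147687 to 122153082), and Nlrc5 (94434335 to 94527272) and Psmb10 (105935728 to 105938392) are on chromosome 8. RefSeq promoter windows of this build, 250 bases before to 50 after the start, matched 8 of the 10. Tap2 and Nlrc5 had none. The bases before the start, 5′ to 3′, are shown for the light and heavy chains, which lie on 2 chromosomes, and for the neighbours Psmb9, Tap1 and Psmb8, so that the regulatory letters they share can be read. B2m is at chr2:122147437-122147686 on the + strand, H2-K1 at chr17:34000348-34000597 on the − strand, H2-D1 at chr17:35262844-35263093 on the + strand and Psmb8 at chr17:34197945-34198194 on the + strand. Tap1 and Psmb9 point away from each other, and the 225 bases between their starts, chr17:34187331-34187555, are given on the + strand, which is that of Tap1. Capitals mark the letters TTCNNNGAA (GAS, the interferon gamma-activated site), GAAANNGAA (the core of an interferon-stimulated response element), GGGNNTTCC (kB), TGACG (X2) and CCAAT (Y), each searched on both strands.
B2m: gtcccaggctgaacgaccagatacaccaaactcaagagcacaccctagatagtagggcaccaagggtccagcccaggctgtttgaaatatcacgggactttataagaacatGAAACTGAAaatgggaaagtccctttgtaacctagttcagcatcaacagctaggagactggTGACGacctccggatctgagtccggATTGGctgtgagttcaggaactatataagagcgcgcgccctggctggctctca
H2-K1: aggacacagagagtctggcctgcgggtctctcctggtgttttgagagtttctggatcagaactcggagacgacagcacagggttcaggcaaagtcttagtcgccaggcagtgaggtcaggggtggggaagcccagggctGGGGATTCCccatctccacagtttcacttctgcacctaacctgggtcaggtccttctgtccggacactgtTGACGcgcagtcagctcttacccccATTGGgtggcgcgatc
H2-D1: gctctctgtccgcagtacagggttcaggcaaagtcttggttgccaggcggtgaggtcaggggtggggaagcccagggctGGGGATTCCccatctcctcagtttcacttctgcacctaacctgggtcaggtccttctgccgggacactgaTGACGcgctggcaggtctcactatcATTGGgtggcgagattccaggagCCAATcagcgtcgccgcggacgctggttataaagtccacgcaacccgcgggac
Tap1 and Psmb9: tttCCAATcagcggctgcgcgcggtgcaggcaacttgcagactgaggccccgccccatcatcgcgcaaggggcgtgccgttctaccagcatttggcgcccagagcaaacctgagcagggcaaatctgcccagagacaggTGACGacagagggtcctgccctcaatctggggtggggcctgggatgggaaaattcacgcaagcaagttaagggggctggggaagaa
Psmb8: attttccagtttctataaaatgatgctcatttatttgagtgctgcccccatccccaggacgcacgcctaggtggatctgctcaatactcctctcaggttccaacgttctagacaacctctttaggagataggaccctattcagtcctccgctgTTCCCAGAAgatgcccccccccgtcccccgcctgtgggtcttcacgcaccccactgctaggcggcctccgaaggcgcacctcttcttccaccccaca

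Over the whole windows, the X2 letters were found in 5 of 8 members (B2m, H2-K1, H2-D1, Tap1 and Psmb9) against 20.8% of 32851 promoter windows, and the Y letters in 6 of 8 against 37.4%. Tap1 and Psmb9 share these 2 matches, since their windows overlap. The kB letters were in H2-K1 and H2-D1 against 5.82% of windows, the interferon response core in B2m against 8.56%, and the GAS letters in Psmb8 against 8.3%. In B2m, H2-K1 and H2-D1 the X2 letters were followed on the same strand by ATTGG, the reverse complement of the Y letters, with 25 bases from start to start. This layout stood in 31 of the 32851 windows, or 0.0944%, with the windows of these members among them. Only the spacing seen in these members was counted, so the share is no independent test of enrichment. H2-K1 and H2-D1 also share long stretches of the bases shown and are not separate cases. A match of letters is a description of the sequence and not a measured site.

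The libraries held 8496 to 16330 kept cells with a median of 2835 to 5572 UMIs per cell. Before filtering, 38.7% of the control's barcodes had over 30% mitochondrial UMIs, against 11.1 to 12.7% in the AKI and CKD libraries. Among kept cells the median share of mitochondrial UMIs was 10.3% in the control against 3.39 to 7.45% in the others, and the part of this in the differences from the control was tested only by the stricter limit given with the tubular results. The control also shared 98 barcodes with deeper cells of CKD 2, among them 7 of its tubular and 70 of its immune cells. There is 1 control library, so the tests take its spread to be that of the AKI and CKD pairs, and the study's methods give each group as many samples as it has libraries here, without saying whether a sample is a single mouse. Of 113 cell type markers, 112 were higher in their named class than in the other compartments. The same markers had named the clusters, so this is no independent check of the names. Leukocyte markers, 13 genes such as Ptprc and Cd3e, were present in every compartment. In tubular cells their summed level was 0.711 UMIs per 10000 in the control, 2.82 and 2.2 in the AKI libraries, 14.6 in CKD 1 and 4.65 in CKD 2, against 61.1 to 91.7 in immune cells.

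In tubular cells all 10 genes rose from control to AKI, by 1.09 to 3.64 on the log2 scale (edgeR quasi-likelihood test, p adjusted by the method of Benjamini and Hochberg over all 15646 genes tested). Of all those genes, 6.43% were called, and 4.31% were called higher. The light chain B2m stood at 1.47 UMIs per 10000 in the control, 7.81 and 10.3 in AKI, and 8.5 and 6.87 in CKD. Every AKI and CKD library lay far above the control, with exact 95% intervals of 1.43 to 1.51 for the control and 7.69 to 7.93 for AKI 1. Its rise was 2.57 ± 0.34 (log2, SE), with an adjusted p of 0.0189. The heavy chain H2-K1 went from 2.56 to 10.7 and 12.2, and then stood at 7.28 and 7.43. It rose by 2.12 ± 0.24 (adjusted p = 0.0145). H2-D1, the other classical heavy chain of this strain, was at 2.11, 8.59, 9.44, 7.34 and 6.11, and rose by 2.05 ± 0.28 (adjusted p = 0.0196). H2-K1, H2-D1 and the other heavy chains have near-identical stretches, so that reads may have been lost or shared among them in counting.

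**Figure D1:**
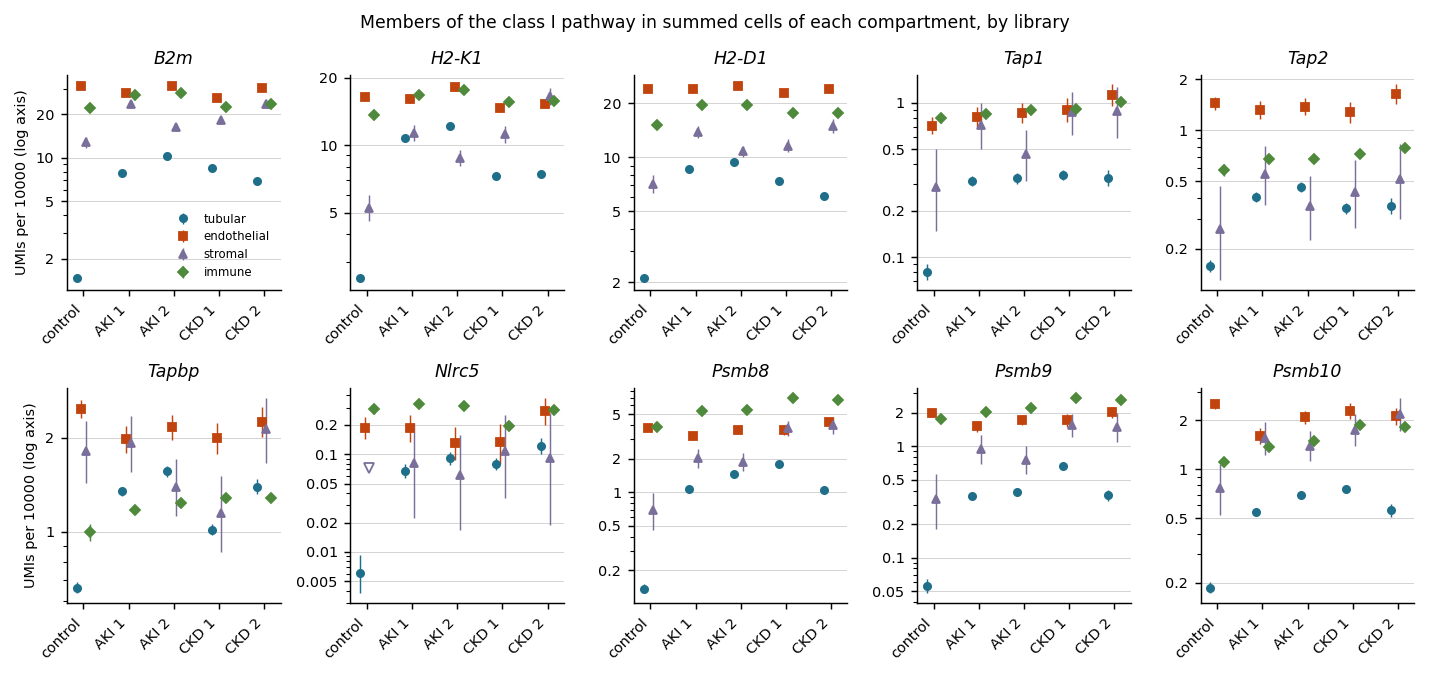
Level of each of the 10 genes in UMIs per 10000 (log axes) in the 5 libraries (x axis), with 1 symbol per compartment and exact 95% Poisson intervals, which cover counting error only. Tubular values (circles) are lowest in the control for every gene, where B2m is at 1.47, and endothelial values (squares) stay within a narrow band, for B2m 25.9 to 31.6. The open triangle for Nlrc5 marks a floor of 3 UMIs, drawn in place of the count of 0 in control stromal cells.

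The genes of peptide transport and loading rose by 1.09 to 1.95 on the log2 scale. Tap1 was at 0.0801 UMIs per 10000 in the control and at 0.314, 0.325, 0.34 and 0.326 in the other 4 libraries, which hardly differed from each other. Its rise from control to AKI was 1.95 ± 0.19 (log2, adjusted p = 0.0129). Tap2, the other chain of the pump, was at 0.158, 0.404, 0.465, 0.346 and 0.359, and rose by 1.41 ± 0.18 (adjusted p = 0.018). Tapbp had the smallest rise of the 10, with 0.66, 1.34, 1.56, 1.01 and 1.39, or 1.09 ± 0.21 (adjusted p = 0.0412).

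Nlrc5 had the largest fold of the 10 but few UMIs. It counted 21 UMIs in the 3527 control tubular cells, or 0.0061 per 10000 (exact 95% interval 0.00377 to 0.00932). AKI libraries held 147 and 159 UMIs, or 0.0674 and 0.0907 per 10000, and CKD libraries 182 and 108, or 0.08 and 0.122. Both AKI libraries lay above the control, and the rise was 3.64 ± 0.41 (log2, adjusted p = 0.0145).

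The immunoproteasome subunits rose with the class I chains, while their constitutive counterparts did not pass the test. Psmb8 was at 0.137, 1.08, 1.45, 1.78 and 1.05 UMIs per 10000, Psmb9 at 0.0554, 0.358, 0.388, 0.672 and 0.364, and Psmb10 at 0.187, 0.546, 0.692, 0.76 and 0.559. CKD 1, the library with the most leukocyte RNA in its tubular cells, had the highest value of each. From control to AKI, Psmb8 rose by 3.16 ± 0.46 (adjusted p = 0.0219), Psmb9 by 2.70 ± 0.46 (adjusted p = 0.0285) and Psmb10 by 1.68 ± 0.31 (adjusted p = 0.0354). Psmb5, which Psmb8 replaces, was at 1.49, 1.89, 1.94, 2.02 and 1.83, with a log2 difference of 0.32 (adjusted p = 0.39). Psmb6 and Psmb7 differed by 0.14 and 0.04 (adjusted p = 0.731 and 0.913). As a share of the pair's UMIs, Psmb8 made up 8.42% in control tubular cells (472 of 5609 UMIs, exact binomial 95% interval 7.7 to 9.17%), 36.3% and 42.8% in AKI, and 46.9% and 36.5% in CKD. Psmb9 made up 3.11% of itself and Psmb6 in the control, 15.6% and 16.3% in AKI, and 24% and 16.5% in CKD. Psmb10 made up 16.5% of itself and Psmb7 in the control, 35.9% and 40.1% in AKI, and 42.6% and 36.9% in CKD. In immune cells the Psmb8 share was 79 to 83.2% and in endothelial cells 74.5 to 78.7% over all 5 libraries, so that the tubule stayed below both in AKI and CKD.

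**Figure D2:**
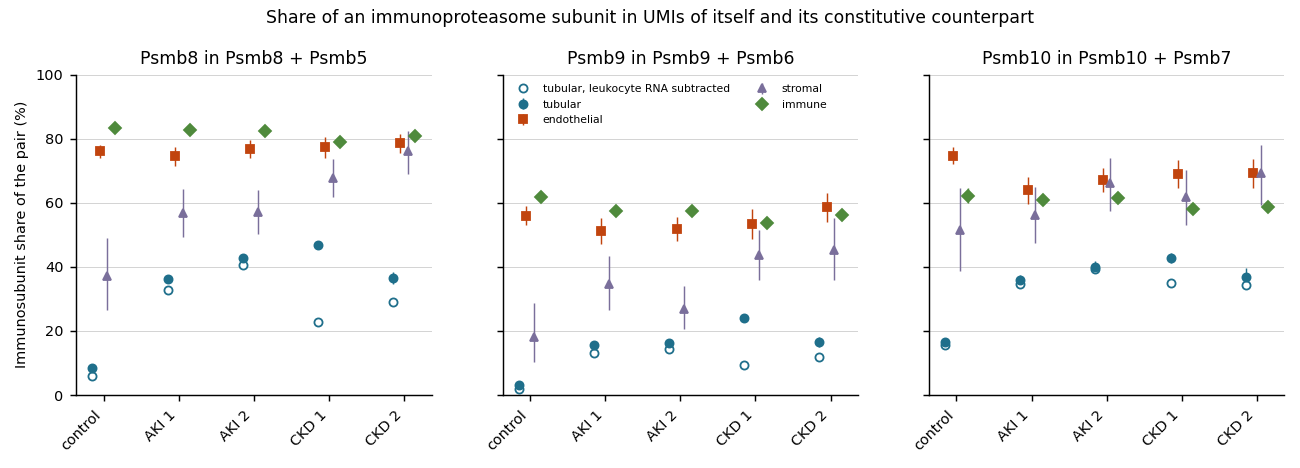
Share of each immunoproteasome subunit in the UMIs of itself and its constitutive counterpart (y axis, percent) by library, per compartment, with exact 95% binomial intervals. The tubular Psmb8 share is 8.42% in the control and 36.3 to 46.9% in the other libraries. Open circles give the tubular share after subtraction of leukocyte RNA, 5.88% in the control and 22.8 to 40.4% in the others.

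The rise was present along the whole nephron. In each of 7 tubular classes (proximal tubule PT, thin limb, thick ascending limb TAL, distal convoluted tubule DCT, connecting tubule CNT, and collecting duct principal and intercalated cells, CD PC and CD IC) both AKI libraries lay above the control for every gene with at least 50 UMIs, which was all 10 genes in 6 classes and 9 in CNT-like cells, where Nlrc5 had fewer. The same held for 46.5% of all genes in PT-like cells, 39.4% in thin limb-like, 44.2% in TAL-like, 43.9% in DCT-like, 44.4% in CNT-like, 31.2% in CD PC-like and 49.8% in CD IC-like cells. PT-like cells, the segment that takes up AAI, had B2m at 2.23, 14.5, 17.8, 10.2 and 10.7 UMIs per 10000. H2-K1 in PT-like cells went from 1.63 to 13.1 and 16.8, 9.14 times the control on average, and to 7.36 and 8.32 in CKD. Thin limb-like cells had the smallest ratio of AKI to control for 7 of the 10 genes, with H2-K1 at 4.59 in the control and 11.9 and 9.33 in AKI. The ratio for Psmb8 was highest in CD IC-like cells, from 0.0546 to 0.737 and 0.758, 13.7 times the control on average. In TAL-like cells, 8 of the 10 genes were higher in both CKD than in both AKI libraries, all but H2-K1 and H2-D1 (14.3% of all genes there), and B2m was at 0.758, 2.62, 2.76, 5.36 and 4.51. Levels and counts by class, those in TAL-like cells included, are without any correction for leukocyte RNA unless stated. In PT-like cells of CKD 1, leukocyte markers came to 18.6% of the immune level. Both CKD libraries lay below both AKI libraries for 5 of 10 genes in PT-like (25.4% of all genes), 5 of 10 in thin limb-like (26.4%) and 4 of 10 in CD PC-like cells (19.5%). The same held for 0 of 10 in DCT-like (26.1%), 1 of 9 in CNT-like (26.6%) and 1 of 10 in CD IC-like cells (29.1%). The CNT-like count includes CKD 2 with 19 cells, under the limit of 20 set for levels. After subtraction of leukocyte RNA in PT-like cells, all members but Tap1 and Nlrc5 were lower in both CKD libraries. Psmb8 there was at 0.98 and 1.72 in AKI and 0.624 and 0.783 in CKD. The subtraction took 18.6% and 5.44% of the immune level there in CKD against 3.8% and 2.7% in AKI. It thus lowers genes high in immune cells more in CKD by construction. The share of all genes after subtraction was not computed for this class. In PT-like cells alone, the test called all 10 genes higher in AKI than in the control, with log2 rises of 2.51 to 3.64, where 7.08% of 12834 genes were called. It called none of them there for CKD against AKI, where 0.101% of genes were called. Podocyte-like cells, which are not tubular, had B2m at 7.85, 18.9 and 15.1 in control and AKI and at 11.7 in CKD 1.

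**Figure D3:**
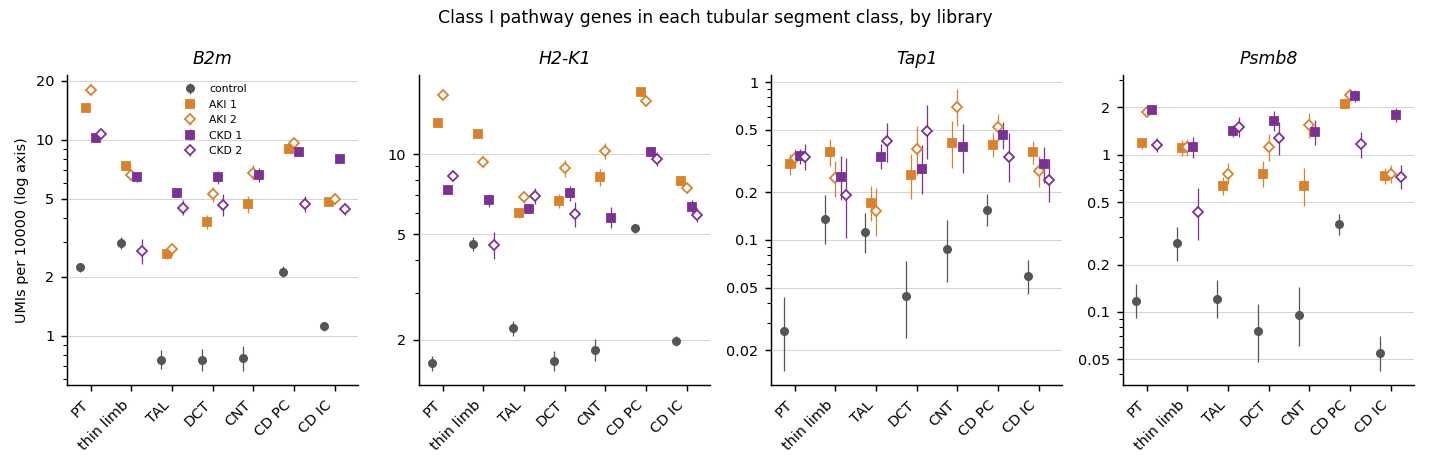
Levels of B2m, H2-K1, Tap1 and Psmb8 (log axes, UMIs per 10000, exact 95% Poisson intervals) in 7 tubular classes (x axis), 1 symbol per library. The control (grey) is the lowest of the libraries in most classes and genes, as for B2m in PT-like cells at 2.23 against 10.2 to 17.8. Classes with under 20 cells in a library are left out.

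Leukocyte markers were higher in tubular cells of the AKI and CKD libraries, so the values were also computed without that RNA. From control to AKI, 3 of 13 markers passed the test, where 6.43% of all genes did, with a median log2 difference of 2.98. All 13 markers had UMIs in tubular cells of every library, and their summed level came to 1.16% of that in immune cells in the control, 3.41% and 2.87% in AKI, 18.5% in CKD 1 and 5.07% in CKD 2. Subtracting these shares of the immune cells' levels left the AKI values well above the control: B2m at 1.21, 6.88 and 9.45 UMIs per 10000 and Psmb8 at 0.0925, 0.898 and 1.29. After subtraction both AKI libraries were above the control for all 10 genes, as for 41.9% of all genes, with ratios of 2.18 for Tapbp to 25.3 for Nlrc5. In tubular cells without any leukocyte marker UMI (2276 in the control, 423 and 305 in AKI, 629 and 140 in CKD) B2m was at 1.67, 9.4, 13.2, 5.79 and 5.71. The test in these cells called all 10 genes higher in AKI, by 1.32 to 3.89 on the log2 scale, where 7.78% of 11867 genes were called. At most 15% mitochondrial UMIs instead of 30%, which left 1563 of 3527 control tubular cells, kept the direction of all 10 genes (rises of 0.89 to 3.46) but no call, and 3 genes of 15063 were then called (0.0199%). Without AKI 2, 6 of the 10 were called, as were 2.45% of all genes.

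From AKI to CKD, none of the 10 genes passed the test in tubular cells, and no gene of 15646 did (0%). At an unadjusted p under 0.05 there were 2121 genes, and DESeq2 called 302, none of them members. H2-K1 came nearest, with a difference of -0.56 ± 0.18 (adjusted p = 0.287), and both CKD libraries lay below both AKI libraries. The same was true of H2-D1 and Tap2 (3 of 10, against 30% of all genes), and both CKD values of Tap1 lay above. For the other 6 the groups overlapped. These counts changed with the treatment of leukocyte RNA. After subtraction, 8 of the 10 genes were lower in both CKD than in both AKI libraries, all but Tapbp and Nlrc5, against 40.4% of all genes. Their CKD level was 0.504 (H2-K1) to 0.768 (Psmb10) of the AKI level. The subtraction took 18.5% and 5.07% of the immune level in CKD against 3.41% and 2.87% in AKI. Genes high in immune cells, as the members are, are thus lowered more in CKD by construction. The share of all genes is therefore not a like baseline. In cells without a leukocyte UMI, 9 of the 10 were lower in both CKD libraries, all but Nlrc5, against 25.6% of all genes. The test called 4 of them, where 0.725% of 11867 genes were. These were Psmb8 (-1.20 ± 0.24, adjusted p = 0.0356), H2-K1 (-1.17 ± 0.20, adjusted p = 0.0162), Tap2 (-1.08 ± 0.23, adjusted p = 0.0472) and H2-D1 (-1.05 ± 0.20, adjusted p = 0.0314). Psmb8 in these cells was at 0.168, 1.47, 1.83, 0.785 and 0.519 UMIs per 10000, whereas in all tubular cells its difference was 0.28 ± 0.32. The Psmb8 share of its pair in these cells was 9.63%, 43.1%, 48.6%, 28.5% and 23.8%, with 30 UMIs of Psmb8 in CKD 2. These cells were 64.5% of control tubular cells, 28% and 25.9% in AKI, and 12.3% and 20% in CKD. A cell with few UMIs is more likely to lack a leukocyte UMI. Depth and class mix of the kept cells were not compared between libraries, and their part in the fall was not tested. In both CKD libraries all 10 genes lay above the control in all tubular cells (35.3% of all genes did), after subtraction (20.4%) and in cells without a leukocyte UMI (25.8%). CKD was not tested against the control.

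Endothelial cells had the highest control level of the 4 compartments for 7 of the 10 genes, all but Nlrc5, Psmb8 and Tap1, and the changes were small. The compartment is the 1808 cells of a cluster led by Plvap and Kdr. An unnamed cluster of 1899 cells led by Cldn5 and Sox17, whose best marker set was endothelial, is not in these values. With it added, no member was called, and 5 of 12482 genes were from control to AKI. B2m was at 31.6, 28.2, 31.3, 25.9 and 30.2 UMIs per 10000, H2-D1 at 24, 24, 24.9, 23 and 24.2, and Psmb8 at 3.8, 3.2, 3.61, 3.58 and 4.23. None of the 10 passed the test from control to AKI, where 8.53% of 11064 genes did, or from AKI to CKD, where none did (0%). The differences from control to AKI ran from -0.39 ± 0.19 for Psmb10 to 0.28 ± 0.19 for Tap1. DESeq2 also called none of them in either comparison. In this comparison leukocyte markers rose in endothelial cells too, 12 of 13 by the test, from a summed level of 0.529 to 4.22 and 3.78. Without endothelial cells that held a leukocyte UMI, B2m was at 31.5, 27.6, 33.2, 26.5 and 32.9. A test of the difference itself, added after the values were seen, found the rise from control to AKI larger in tubular than in endothelial cells for all 10 genes, by 1.29 (Tapbp, adjusted p = 0.0407) to 3.80 (Nlrc5, adjusted p = 0.0181), where 1.44% of 14483 genes were called. Without AKI 1 or without AKI 2, none of the 10 was called and no gene at all was (0% of 14364 and of 14385), while all 10 differences stayed above 0, with B2m at 2.88 without AKI 1 and 2.57 without AKI 2. From AKI to CKD, no difference between these compartments was called (0% of 14483 genes, 741 at an unadjusted p under 0.05).

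In immune cells the 10 genes were high throughout and the changes small. B2m was at 22.2, 27.3, 27.9, 22.3 and 23.6 UMIs per 10000, so that AKI lay above both control and CKD. All 10 genes were above the control in both AKI libraries, as were 39.4% of all genes. None was called at 6.43% of 16093 genes called, with log2 differences of 0.23 ± 0.14 (Tap1) to 0.58 ± 0.12 (Psmb8, adjusted p = 0.0541). On simulated data this test recovered 6.67% of 2-fold changes, so changes of this size could be missed. DESeq2 called 7 of them and 12.9% of all genes. Without CKD 1 or without CKD 2, 7 were called, where 29.6% and 28.7% of all genes were. Psmb8 was higher still in CKD, with 3.82, 5.29, 5.47, 6.96 and 6.72, while H2-D1 was at 15.2, 19.6, 19.7, 17.6 and 17.6. From AKI to CKD, none was called where 7.45% of genes were, and DESeq2 called 3 of them and 10.9% of all genes. The make-up of the immune compartment changed as well: T lymphocyte-like cells were 1190 of 2745 in the control, 5919 of 7350 and 5671 of 7481 in AKI, and 5010 of 8716 and 5479 of 7120 in CKD. The part of this in the levels was not tested beyond the values within classes. In T lymphocyte-like cells alone, Psmb8, Psmb9 and Psmb10 rose from AKI to CKD by 0.36, 0.43 and 0.42 (adjusted p = 0.0479, 0.0329 and 0.0348, 8.61% of 14831 genes called), and Psmb8 alone had risen from control to AKI (0.49, adjusted p = 0.0493, 5.43% called). A T lymphocyte-like cluster led by cell division genes such as Mki67 and Birc5 held 251 and 222 cells in AKI against 1183 and 844 in CKD, and its part in these differences was not tested. In macrophage-like cells alone, Psmb8 and Psmb10 rose from control to AKI by 0.64 and 0.70 (adjusted p = 0.034 and 0.0366, 13.4% of 13756 genes called). B2m and Nlrc5 fell there from AKI to CKD, by 0.62 and 0.88 (adjusted p = 0.0107 and 0.0179, 25.9% called), with B2m at 26.1, 28.5, 28.1, 19.9 and 21.1.

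The log2 difference from control to AKI in tubular cells minus that in immune cells was 0.74 (Tapbp) to 3.41 (Nlrc5). The test of it called none of the 10 genes and no gene of 17098 (0%). At an unadjusted p under 0.05 there were 2282 genes, and DESeq2 called 7 members among 258 genes (1.51%). All 10 were called without CKD 1, where 23.2% of all genes were, and all 10 without CKD 2, where 18.3% were. From AKI to CKD no difference was called either (0%, 2081 genes at an unadjusted p under 0.05, 82 by DESeq2), while 5 members were called without CKD 1 (15.3% of all genes) and 2 without CKD 2 (17.2%).

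There were 25 to 189 stromal cells per library, and their control levels lay above those of tubular cells for all genes but Nlrc5. B2m was at 12.8, 23.5, 16.2, 18.2 and 23.7 UMIs per 10000, and Psmb8 at 0.692, 2.03, 1.87, 3.75 and 3.99. All but Tapbp of the 9 genes with enough UMIs were above the control in both AKI libraries, as were 40.9% of all genes. Nlrc5 had 0 UMIs in the control (exact 95% upper limit 0.088 per 10000) and 3 to 5 UMIs in each other library. None of the 9 passed the test in either comparison, and no gene of 7798 did (0% in both). On simulated data the stromal test recovered 5.32% of 4-fold changes for AKI against control and 20.2% for CKD against AKI. The lack of calls therefore does not show a lack of change. At an unadjusted p under 0.05 there were 583 and 835 genes, and DESeq2 called 18 genes and no member in each. Leukocyte markers in stromal cells came to 49.4% of the immune level in CKD 1, and subtraction took the Psmb8 share there from 67.8% to 26.6%. Without CKD 1, 3 members were called higher in AKI than in the control, where 8.94% of all genes were called in either direction.

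**Figure D4:**
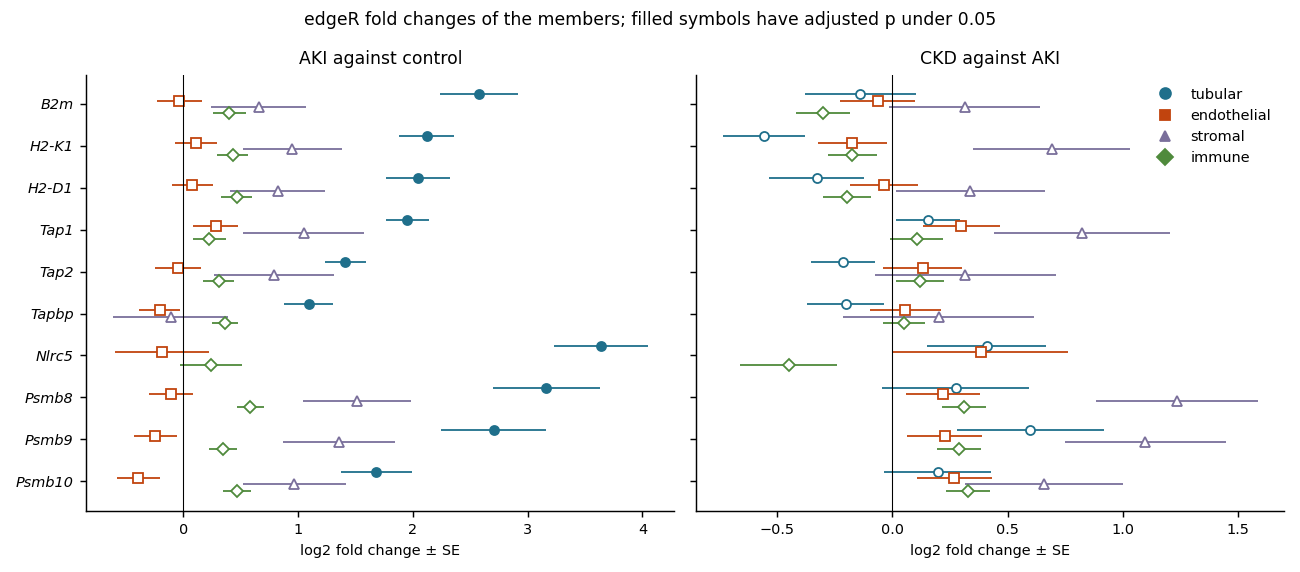
Log2 fold changes (x axis) with their standard errors from edgeR for the 10 genes in 4 compartments, AKI against control on the left and CKD against AKI on the right. Filled symbols have an adjusted p under 0.05. On the left the tubular circles are filled for all 10 genes, from 1.09 to 3.64, and endothelial squares lie around 0.

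Beyond the 10 genes, other parts of the class I pathway in tubular cells were counted by list. From control to AKI, 6.43% of all genes were called in these cells and 4.31% were called higher, which stands beside each count below. Of 15 other class I-like heavy chains found, 12 were tested and 6 rose from control to AKI. Their median log2 difference was 1.62, against a median of -0.004 over all genes. Chosen here after their values were seen, H2-Q6 went from 0.0354 to 0.438 and 0.425 UMIs per 10000 and H2-T23, a non-classical heavy chain, from 0.123 to 0.625 and 0.802. H2-Q2, Mr1, Cd1d1 and H2-M2, the members of this list with the smallest p for CKD against AKI, did not pass in either comparison. Mr1, which presents vitamin metabolites to MAIT cells, was at 0.12, 0.139, 0.116, 0.0633 and 0.108. Of 5 other genes of peptide loading and trimming, Tapbpl rose (0.0885 to 0.215 and 0.237, log2 1.31, adjusted p = 0.0202), while Erap1, Calr, Pdia3 and Canx did not pass. None of the 3 PA28 activator genes passed, with Psme1 at 1.18, 1.83, 1.92, 2.06 and 1.82 and Psme2 at 0.563, 0.976, 1.02, 1.3 and 0.994. None of the 11 other core subunits of the proteasome passed, and their median was 0.16. Of 10 proximal tubule transcripts, 2 rose and 1 fell. No gene of any of these lists was called in tubular cells for CKD against AKI. In immune cells, 4 of the 11 core subunits and 2 of the 3 constitutive catalytic subunits rose from control to AKI (6.43% of all genes were called), and 5 and 2 of them from AKI to CKD (7.45%). The tests of the difference between tubular and immune cells called 0 of the 11 and 0 of the 3 in both comparisons.

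Of 14 genes of the interferon gamma pathway and class I regulation, 2 were called higher in tubular cells from control to AKI (6.43% of all genes were called). In endothelial cells 3 were called higher and 1 lower (8.53%), and in immune cells 2 were called higher (6.43%). Ifngr2, a receptor chain, rose in tubular cells from 0.139 UMIs per 10000 in the control to 0.291 and 0.297 in AKI (1.03 ± 0.16, adjusted p = 0.0242). In endothelial cells Irf1, an interferon-induced transcription factor, rose from 1.68 to 5.99 and 5.26 (1.80, adjusted p = 0.00123). Irf1 was named after its values were seen. Ifng itself was highest in NK-like cells (8.92, 5.14, 6.17, 8.11 and 6.66) and next in T lymphocyte-like cells (5.24, 4.34, 4.86, 3.98 and 3.51), already in the control. Per immune UMI it was at 2.97, 3.09, 3.02, 2.51 and 2.56, with no call in either comparison. In tubular cells Ifng was at 0.0131, 0.149, 0.0896, 0.499 and 0.186, in the same order of libraries as the leukocyte markers.

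Across 80 points, each a cell class with at least 20 cells in a library (17 classes), the 10 genes varied together to different degrees. Pearson's r of the log2 levels ranged from 0.31 for Tapbp and Nlrc5 to 0.97 for Psmb8 and Psmb9, with a median of 0.73 over 45 pairs. The points share libraries and free RNA, so these are descriptions. Outside the lists, the genes whose profile was most like the mean of the 10 were Ifi47 (r = 0.83), Irf7, Tpm3, Zbp1, Tgfb1, Isg15, Crlf2, AU020206, Slfn2 and Ppp1r18 (r = 0.78), among 12859 genes ranked.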

How the data were processed

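The deposited values are UMI counts, whole numbers for each gene in each cell barcode, which the authors obtained with Cell Ranger and left without normalization. Version 7.2.0, STAR and GRCm39 stand in the submitters' processing notes, whereas the matrix headers give 5.0.0 for AKI and CKD, and the control's gene list gives mm10. The study's CellBender correction for free RNA is not contained in the values. Positions and promoters are from RefSeq tables of GRCm38.p6.

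Barcodes with over 30% mitochondrial UMIs or under 200 genes were dropped, and 6325 of the remaining 60043 cells were removed by a score against simulated doublets. The cells were clustered on 40 principal components of 3000 variable genes (listed genes left out unless they mark a cell type) after correction by library with an own implementation of Harmony, which gave 40 Leiden clusters, named from markers. A cluster of 1899 cells led by Cldn5 and Sox17 and 1 of 332 cells led by Rgs5 and Ren1 stayed unnamed, and each was added to its nearest compartment (endothelial and stromal) as an alternative after seeing the data. UMIs were summed per library and compartment and tested in 1 fit of all 5 libraries with edgeR 4.0.16 (quasi-likelihood test, TMM, filterByExpr) in R 4.3.3. Differences between compartments were tested as an interaction with the library as a block, and DESeq2 1.42.0 was an alternative. The methods do not say whether each library came from a mouse of its own, and p-values measure the spread between libraries. Intervals (95%) and floors (3 UMIs) cover counting error only. Leukocyte RNA was subtracted as the immune level times the ratio of summed leukocyte markers in the compartment and in immune cells. The tests were also run on simulated data with 200 changed genes. For AKI against control, 4-fold changes were recovered at 86.3% in tubular, 83.5% in endothelial, 5.32% in stromal and 60% in immune cells. For 2-fold changes these were 21.9%, 49.5%, 0% and 6.67%. For CKD against AKI, 4-fold changes were recovered at 88.4%, 80.4%, 20.2% and 89.5%, and 2-fold changes at 45.7%, 45.6%, 0.943% and 28.6%. The members and lists were chosen with earlier results of these data known. By rule, the 10 members were named, at most 4 genes per list (smallest p for CKD against AKI in tubular cells) and the 10 genes most like the members. Clustering used Python 3.11.15, numpy 2.4.6, scipy 1.17.1 and leidenalg 0.10.2. Some genes of the pathway lists are not reported here.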

Additional observations from a re-analysis of the deposited data

Results flagged for a closer look

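The rise of the 10 genes from control to AKI differed between tubular and endothelial cells by the test of the difference. The log2 difference, tubular minus endothelial, was 2.59 for B2m, 2.00 for H2-K1, 1.96 for H2-D1, 1.66 for Tap1, 1.45 for Tap2, 1.29 for Tapbp, 3.80 for Nlrc5, 3.25 for Psmb8, 2.94 for Psmb9 and 2.07 for Psmb10.

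Other pairs of compartments had both libraries of a group on opposite sides, and for these the difference was not tested. The share of all genes with such opposite positions was not counted. Both AKI libraries lay above the control for 36.4% of all genes in endothelial, 40.9% in stromal and 39.4% in immune cells. Some positions were within counting error. Endothelial B2m was at 31.6 in the control (95% interval 31 to 32.2) and 31.3 in AKI 2 (30.6 to 32.1). Endothelial Nlrc5 was at 0.188 in the control and 0.186 in AKI 1. From control to AKI, both AKI libraries lay below the control in endothelial cells and above it in stromal cells for B2m (log2 of the ratio of ratios, endothelial over stromal, -0.72), Tap2 (-0.89), Psmb8 (-1.65), Psmb9 (-1.64) and Psmb10 (-1.39). They lay below it in endothelial and above it in immune cells for B2m (-0.40), Tap2 (-0.32), Tapbp (-0.53), Nlrc5 (-0.39), Psmb8 (-0.65), Psmb9 (-0.55) and Psmb10 (-0.82). From AKI to CKD, Nlrc5 was higher in both CKD libraries in stromal cells, at 3 to 5 UMIs a library, and lower in both in immune cells (0.90).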

How the results depend on the processing

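The counts below are members called of 10 (9 in stromal cells). For tubular cells, AKI against control, 10 were called with DESeq2, without a filter on low counts, with doublets kept, without correction by library, in PT-like cells and in cells without a leukocyte UMI, 0 at the 15% mitochondrial limit, and 6 to 10 without 1 library (6 without AKI 2). For tubular cells, CKD against AKI, where 0 were called, 1 was called without the filter on low counts, 4 in cells without a leukocyte UMI and 0 to 1 without 1 library (without CKD 2). There the Psmb8 difference turned from 0.28 to -1.20 in cells without a leukocyte UMI, and the tubular minus endothelial difference of Psmb8 turned from -0.02 to 0.61 without CKD 2 (-0.63 without CKD 1). The cause was not tested. In endothelial cells no alternative called a member. In stromal cells members were called only without CKD 1, which leaves 1 CKD library, as were other genes. In immune cells, AKI against control, 7 were called with DESeq2, 2 without the filter, 1 in T lymphocyte-like and 2 in macrophage-like cells, and 0 to 7 without 1 library. In immune cells, CKD against AKI, 3 were called with DESeq2, 3 in T lymphocyte-like, 2 in macrophage-like cells, and 0 to 2 without 1 library. For the tubular minus immune difference, 7 were called with DESeq2 for AKI against control and 0 to 10 without 1 library, and 0 to 5 for CKD against AKI. For the tubular minus endothelial difference, 7 were called with DESeq2 for AKI against control and 0 for CKD against AKI. Without AKI 1 or AKI 2 the calls were lost, as given above. Without CKD 1 or CKD 2, which leaves 1 CKD library, members were called in both comparisons, as were other genes. With the replicate block, 0 members were called for CKD against AKI in any compartment or difference. Deviations of same-numbered libraries correlated at -0.08, 0.11, -0.16 and 0.18 in tubular, endothelial, stromal and immune cells. With 2 libraries per group, these values cannot decide whether the numbers pair the libraries. The crossed pairing in stromal cells, added after seeing the data, called 0 members and 85 of 6151 genes. The cells without a leukocyte UMI were not tested in stromal cells, since under 20 were left in 4 libraries. Over all genes, for AKI against control, tubular calls were 1006 in the main test, 1644 with DESeq2, 3076 without the filter, 2280 with doublets kept, 3 at the 15% limit and 383 to 3621 without 1 library. Endothelial calls were 944, 467 with DESeq2, 310 without the filter, 252 with doublets kept, 160 without correction by library, 5 with the Cldn5 and Sox17 cluster and 0 without CKD 1 or CKD 2. Immune calls were 1035, 2072 with DESeq2, 2168 without the filter, 210 with doublets kept, 352 without correction by library and 0 to 4697 without 1 library. For CKD against AKI, tubular calls were 0, 302 with DESeq2, 1452 without the filter, 5 with doublets kept and 0 to 2366 without 1 library. Immune calls were 1199, 1869 without the filter, 435 with doublets kept, 485 without correction by library and 0 to 3846 without 1 library. Stromal calls were 0 in both comparisons, 18 and 18 with DESeq2, and 267 and 447 without the filter. The difference between tubular and endothelial cells gave 208 calls for AKI against control and 129 with DESeq2, and 0 calls for CKD against AKI and 172 with the replicate block. Adding either unnamed cluster changed no call of a member.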
